A study of Mus musculus with 10 samples.

Results

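The genes Tcf7, Lef1, Bach2, Id3, Myb, Foxo1, Foxp1, Satb1, Ets1 and Bcl11b, which encode 10 transcription regulators of naive and stem-like T cells, were followed in transferred CD4 T cells with or without TOX. They were chosen by gene symbol, and all 10 were found among the 53656 genes of each count table and among the 14214 genes tested. The study sequenced RNA from SMARTA CD4 T cells, which carry a transgenic T cell receptor for the GP61 peptide of lymphocytic choriomeningitis virus. Naive TOX wild type (WT) and TOX knockout (KO) cells were given to B6 mice that bore B16-GP61 melanoma, a tumor line carrying that peptide, and that had received cytoxan (cyclophosphamide). On day 11 after transfer, donor cells were sorted from the tumor-draining lymph node, giving 6 KO and 4 WT libraries.

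The KO libraries came from CD4+ cells gated as Ly5.1+, Ly5.2- and low for PD1, LAG3 and CD39. The WT libraries came from CD4+ cells gated as positive for both Ly5.1 and Ly5.2 and high for PD1, LAG3 and CD39. PD1, LAG3 and CD39 are inhibitory or activation-associated molecules of T cells. Because the gate and the congenic marker differed with genotype, the 3 cannot be told apart in any comparison below. The sources used here do not say which part of Tox was deleted, which promoter or Cre was used, or how many animals stand behind a library. P-values therefore speak of the scatter among the libraries at hand, part of which may be technical.

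Naive and stem-like T cells are held in a quiescent, self-renewing state by a network of DNA-binding proteins, and effector differentiation is known to lower many of them. TCF1 (the product of Tcf7) and LEF1 are HMG-box factors of the Wnt pathway, and BACH2 represses effector genes such as Prdm1. FOXO1 and FOXP1 are forkhead proteins of quiescence, ID3 blocks the E proteins, and MYB, SATB1, ETS1 and BCL11B act in T lineage development and in the upkeep of mature T cells.

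Of the 10 genes, Myb alone passed the test, and it was higher in KO by a log2 fold change of 3.21. For Lef1 and Satb1 too, the lowest KO library stood above the highest WT library, but neither passed the test across all genes. The sequences upstream of these 3 genes are shown because their levels separated the genotypes without overlap. Each is the stretch of 250 bases before the 5′-most listed start site, from RefSeq on GRCm38.p6, read 5′ to 3′ on the strand of the gene, with motif matches in capitals.
Myb, chr10:21160985-21161234, minus strand: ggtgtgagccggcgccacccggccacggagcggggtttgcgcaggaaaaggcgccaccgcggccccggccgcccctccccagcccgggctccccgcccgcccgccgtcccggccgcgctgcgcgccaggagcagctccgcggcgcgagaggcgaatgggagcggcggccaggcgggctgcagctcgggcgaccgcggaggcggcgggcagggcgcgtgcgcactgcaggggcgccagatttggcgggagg
Lef1, chr3:131110047-131110296, plus strand: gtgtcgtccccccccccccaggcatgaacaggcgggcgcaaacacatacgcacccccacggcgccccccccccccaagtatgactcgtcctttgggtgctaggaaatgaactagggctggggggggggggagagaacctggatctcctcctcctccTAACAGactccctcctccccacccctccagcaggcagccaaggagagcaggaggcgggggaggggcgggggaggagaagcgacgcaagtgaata
Satb1, chr17:51833291-51833540, minus strand: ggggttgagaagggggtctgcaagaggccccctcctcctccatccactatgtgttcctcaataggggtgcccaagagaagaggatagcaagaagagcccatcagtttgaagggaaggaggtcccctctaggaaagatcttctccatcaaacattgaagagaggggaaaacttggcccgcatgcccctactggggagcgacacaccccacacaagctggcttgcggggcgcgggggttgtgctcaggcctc
The Myb window was 81.2% G or C, against 66.4% for Lef1 and 58.0% for Satb1. The capitals in the Lef1 window mark its 1 match to the MYB motif TAACNG, and the other 2 windows held no match to any of the 6 motifs searched.

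A window upstream of a RefSeq start site was found for 9 of the 10 genes, all but Ets1. By the gene models used for counting, the windows of Bach2, Id3 and Foxp1 lay inside the gene, and that of Bcl11b partly so. The Bach2 window, at chr4:32417185-32417434, lay far from the 5′ end of the counted gene at 32238804. Matches in those windows are thus not upstream of the whole counted gene. On either strand, the MYB motif TAACNG lay in 3 of the 9 windows (Lef1, Id3 and Foxo1) and in 19.8% of 27025 windows of the same length. The TCF/LEF motif CTTTGA was found in 2 of 9 (Bach2 and Bcl11b) and in 14.1% of all windows. The E protein motif CAGNTG was found in 2 of 9 (Tcf7 and Foxp1) and in 44.5% of all windows, and the ETS motif CCGGAA in Bach2 and in 12.3% of all windows. The FOXO motif GTAAACA and the BACH and AP-1 motif TGANTCA were in none of the 9, against 3.06% and 6.85% of all windows. A match describes letters only and does not show a bound site.

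Total counts lay between 31939816 and 45481478 in the WT libraries and between 36028980 and 55784453 in the KO libraries, so counting error was small beside the spread between libraries for the 10 regulators. Tox, the targeted gene (GRCm38.p6 chromosome 4, 6686353 to 6991557, minus strand), was at 30.9 ± 20.8 CPM (counts scaled to library size; SD, n = 6) in KO and 236 ± 87.9 CPM (SD, n = 4) in WT, without overlap. By edgeR it fell by 2.93 on the log2 scale (SE 0.48, adjusted p = 0.0102). The 8 T cell receptor complex and Cd4 genes used as T cell markers summed to 15379 to 30385 CPM in KO and 8689 to 21261 CPM in WT, with a median log2 fold change of 0.69. B cell and plasma cell markers summed to 992 to 1436 CPM in KO and 5277 to 22356 CPM in WT. EdgeR called 10 of 13 lower in KO, where 2.70% of all tested genes were. Of the defining B cell markers, Cd79a averaged 72.1 CPM (KO) against 2010.1 CPM (WT), and Ms4a1 averaged 2.62 and 308 CPM. Myeloid and dendritic markers summed to 18.8 to 223 CPM in KO and 1230 to 7489 CPM in WT. Of these, 5 of 14 were called lower in KO by edgeR, against the same 2.70%. CD8 T and NK markers went the other way by sum, at 211 to 320 CPM in KO and 98.5 to 182 CPM in WT. Of those 5 genes, edgeR called 1 higher in KO (Klrb1c), where 0.429% of all tested genes were, and 4 had negative fold changes. WT replicate 1 stood apart from the other WT libraries and held the lowest B cell marker sum among them, against 14962 CPM or more in the other 3. By the library numbers in the labels, KO replicates 1 to 3 and WT replicate 1 carry numbers 1 to 3, and the other 6 libraries carry numbers 4 to 8. The low-numbered libraries held 14365 to 15873 genes with a count and the high-numbered ones 16348 to 19775, and what the numbers stand for is not given. In bulk samples, fewer cells of a type and less RNA per cell cannot be told apart.

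Across the 10 regulators, 1 was called higher in KO by edgeR's quasi-likelihood test at an adjusted p under 0.05, where 0.429% of all tested genes were called higher. None was called lower, where 2.70% of tested genes were. Of the 10, 3 were higher in KO without overlap of the groups, against 2.59% of tested genes, and none was lower without overlap, against 6.31%. The median log2 fold change was 0.87 for the 10 and -0.12 for all genes tested, with 8 positive and 2 negative values, of which Ets1 turned from positive to negative under scaling to T cell receptor genes. At an unadjusted p under 0.05, edgeR gave 5 of the 10, all higher, where 7.15% of all tested genes were higher and 10.8% lower at that threshold. DESeq2 called 4 higher (Lef1, Myb, Satb1 and Bcl11b), against 4.43% of all genes, and limma-voom called 2 higher (Lef1 and Myb), against 1.44%. Scaling to the 8 T cell receptor complex and Cd4 genes, which put the median of all tested genes at -0.92, lowered the median of the 10 to 0.20. Under it Lef1 was at 0.092 and Tcf7 at 0.22, Foxo1 was at 0.17 and Id3 at 0.59, and Myb stayed called at 2.50 (edgeR adjusted p = 0.0307).

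**Figure D1:**
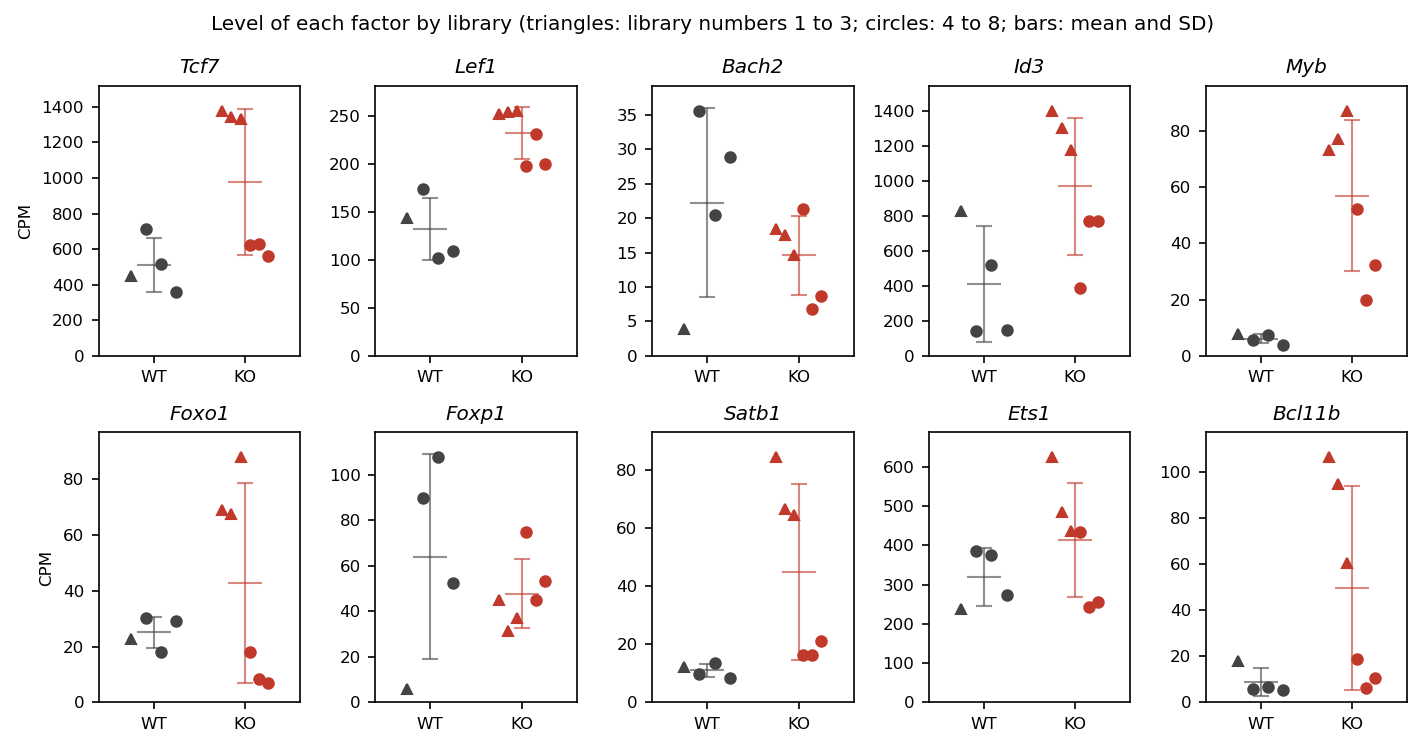
Level of each of the 10 regulators in every library, in CPM on linear axes that start at 0, with WT in grey and KO in red. Triangles are library numbers 1 to 3, circles are 4 to 8, and bars give the mean and SD. Myb, Lef1 and Satb1 show no overlap of the genotypes, and the KO points of Foxo1, Bcl11b, Satb1 and Tcf7 fall into a higher group of 3 and a lower group of 3.

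Tcf7 (chromosome 11, 52252371 to 52283014, minus strand) encodes TCF1, the factor most closely tied to stem-like T cells. Its WT values were 451, 715, 516 and 359.8 CPM in replicates 1 to 4. The KO libraries ranged from 560.04 to 1379 CPM with a median of 980.2 CPM. WT replicate 2 lay above KO replicates 4 to 6, so the groups overlapped. The means were 977 ± 409 CPM (SD, n = 6) in KO and 510.4 ± 151 CPM (SD, n = 4) in WT. EdgeR put the log2 difference at 0.94 (SE 0.36, 95% interval 0.14 to 1.73) with an adjusted p = 0.206.

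Lef1 (chromosome 3, 131110471 to 131224356, plus strand) encodes the close relative of TCF1 that binds the same DNA motif. WT libraries held 143, 173, 102 and 109.7 CPM, and KO libraries 198 to 256 CPM with a median of 242 CPM. The lowest KO library was above the highest WT library, and the KO libraries were the least spread of any of the 10 genes on the log scale. Means were 232 ± 27.1 CPM (SD, n = 6) in KO and 132 ± 32.7 CPM (SD, n = 4) in WT, a 1.75-fold difference. The fitted log2 fold change was 0.81 (SE 0.23, interval 0.30 to 1.32) and edgeR's adjusted p = 0.0988, but it was 0.092 (edgeR adjusted p = 0.873) with scaling to the T cell receptor complex and Cd4 genes. Lef1 shares 1208 exon bases with the antisense gene RP24-176P19.3, which reached 11.4 CPM in 1 library, and the counting used no strand.

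Myb (chromosome 10, 21124935 to 21160984, minus strand) encodes c-MYB, which acts in T cell development and is linked to long-lived, stem-like T cells. Its WT values lay close together, at 7.70, 5.58, 7.26 and 3.99 CPM. KO values were 73.1, 77.1 and 87.1 CPM in replicates 1 to 3 and 52.3, 19.7 and 32.4 CPM in replicates 4 to 6. Every KO library was above every WT library, the nearest pair being 19.7 and 7.70 CPM. Myb averaged 57.0 ± 26.8 CPM (SD, n = 6) in KO and 6.13 ± 1.69 CPM (SD, n = 4) in WT, a 9.28-fold difference. On the log2 scale it rose by 3.21 (SE 0.51, interval 2.09 to 4.34), with an edgeR adjusted p = 0.00895. The call ended when KO replicates 1 to 3 were left out, at 2.57 with an edgeR adjusted p = 0.108. That alternative was chosen after seeing the data. By edgeR the call also ended with the B cell marker mean as a term (3.17, adjusted p = 0.564). So it did with the replicate number as a block (3.57, edgeR adjusted p = 0.0686), a fit that leaves out KO replicates 5 and 6. With the library number as a block, over numbers 2 and 6 only, Myb was at 2.42 and not called. The fits with the B cell term or a block called 0 of all genes tested. Losing the call in those fits thus says little about Myb in particular. The fit without KO replicates 1 to 3 called 17 genes, all of them lower in KO.

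Satb1 (chromosome 17, 51736187 to 51833290, minus strand) encodes a chromatin organizer that is abundant in developing T cells. WT libraries held 12.3, 9.91, 13.5 and 8.44 CPM. KO replicates 1 to 3 held 84.4, 66.7 and 64.5 CPM, and KO replicates 4 to 6 held 16.2, 16.3 and 21.1 CPM. All 6 KO values were above the 4 WT values, but the lower KO libraries lay close to WT. The log2 fold change was 2.02 (SE 0.59, interval 0.72 to 3.33) and edgeR's adjusted p = 0.106, with means of 44.9 ± 30.4 CPM (SD, n = 6) and 11.0 ± 2.27 CPM (SD, n = 4).

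Bcl11b (chromosome 12, 107910403 to 108003602, minus strand) encodes the zinc finger factor that commits precursors to the T lineage and keeps T cell identity. In WT it was at 18.1, 5.87, 6.49 and 5.23 CPM. KO replicates 1 to 3 stood at 106, 94.9 and 60.6 CPM, and replicates 4 to 6 at 18.7, 6.37 and 10.4 CPM. WT replicate 1 lay above KO replicates 5 and 6, so the groups overlapped in spite of a 5.56-fold difference of the means. Fitted on the log2 scale, the difference was 2.47 (SE 0.88, interval 0.53 to 4.42), and edgeR's adjusted p = 0.177.

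Id3 (chromosome 4, 136143497 to 136145755, plus strand) encodes an inhibitor that binds E proteins and keeps them off DNA. Its WT values were the most scattered of the abundant genes, at 828.9, 141, 522 and 149 CPM. KO libraries held 387 to 1403 CPM with a median of 976 CPM. KO replicates 4 to 6 lay inside the WT range. The log2 fold change was 1.24 (SE 0.56, interval -0.0077 to 2.49) with an edgeR adjusted p = 0.281, from means of 969 ± 389.95 CPM (SD, n = 6) and 410.5 ± 331 CPM (SD, n = 4).

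Ets1 (chromosome 9, 32636221 to 32757820, plus strand) encodes an ETS-domain factor needed for the survival and function of mature T cells, and B cells make it as well. WT libraries held 238, 386, 377 and 274 CPM, and KO libraries 243 to 625.5 CPM with a median of 436 CPM. The ranges overlapped. KO exceeded WT by 0.38 on the log2 scale (SE 0.31, interval -0.31 to 1.06, edgeR adjusted p = 0.563), a value that turned to -0.39 when libraries were scaled to the 8 T cell receptor complex and Cd4 genes. Under that scaling 7 of the 10 regulators were positive. With upper-quartile scaling the median of all tested genes was -0.26, against -0.12 in the main fit.

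Foxo1 (chromosome 3, 52268336 to 52353221, plus strand) encodes the forkhead factor that drives lymph node homing and quiescence genes. WT libraries were at 22.6, 30.2, 18.2 and 29.0 CPM. KO replicates 1 to 3 were at 68.8, 67.5 and 87.8 CPM, and replicates 4 to 6 at 18.2, 8.20 and 6.91 CPM. WT thus lay between the 2 sets of KO libraries, with KO replicate 4 just under the lowest WT library. The fold change over all libraries, 0.78 on the log2 scale (SE 0.73, interval -0.84 to 2.39, edgeR adjusted p = 0.619), averages KO libraries that lay on opposite sides of WT. Without KO replicates 1 to 3 it was -1.12.

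Foxp1 (chromosome 6, 98925338 to 99522721, minus strand) encodes a forkhead repressor that holds naive T cells quiescent and is also made by B cells. In WT it was at 5.77, 89.7, 108 and 52.5 CPM, with replicate 1 far below the rest. KO libraries were between 31.2 and 74.6 CPM with a median of 45.1 CPM, inside the WT range. EdgeR gave a log2 difference of -0.42 (SE 0.60, interval -1.75 to 0.91, edgeR adjusted p = 0.751). Of its 13751 exon bases, 300 are shared with RP23-133N21.3, which reached 47.3 CPM. The effect of those shared bases on the Foxp1 counts was not tested.

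Bach2 (chromosome 4, 32238804 to 32586108, plus strand) encodes a repressor that delays effector differentiation and is active in B cells too. WT libraries held 3.91, 35.6, 20.5 and 28.9 CPM, and WT replicate 1 was again the low one. KO libraries held 6.81 to 21.4 CPM with a median of 16.1 CPM, inside the WT range. The log2 fold change was -0.61 (SE 0.57, interval -1.88 to 0.66) and edgeR's adjusted p = 0.620. WT replicate 1, lowest for Bach2 and Foxp1, was also the WT library with the lowest B cell marker sum (5277 CPM). The part of B cell RNA in the WT levels of both genes was not tested. With the mean B cell marker level as a term, Bach2 became 4.42 and Foxp1 4.41, but that mean does not overlap between the genotypes and edgeR called 0 genes of all tested in that fit.

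**Figure D2:**
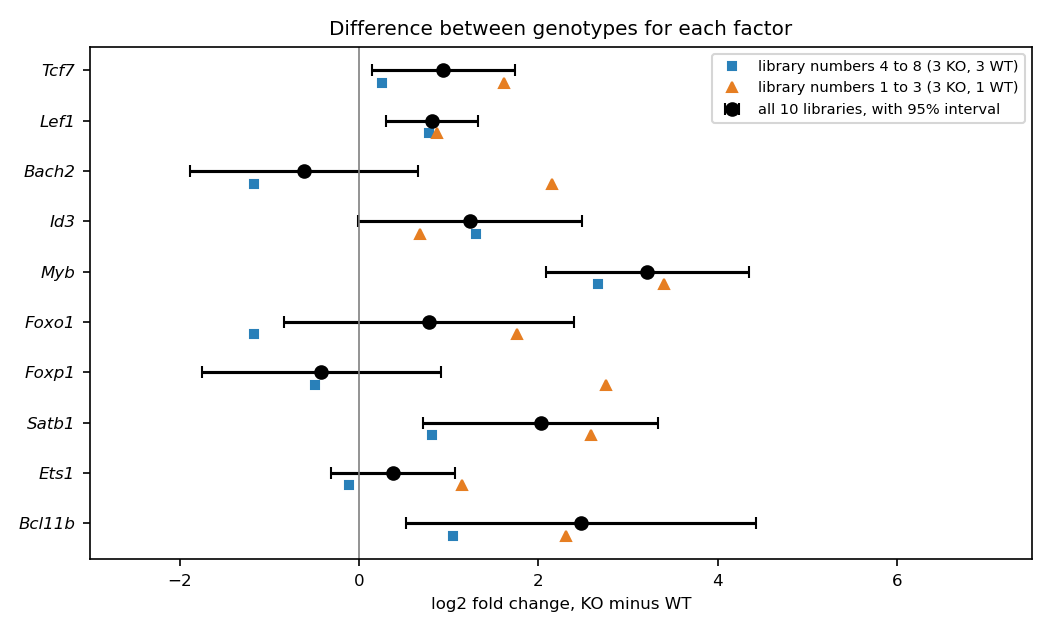
Log2 fold change of KO over WT for each of the 10 regulators with its 95% interval over all 10 libraries (black circles), and without intervals over library numbers 4 to 8 (blue squares) and 1 to 3 (orange triangles). Myb is the 1 gene called by edgeR in each of the 3 comparisons, and Foxo1 and Ets1 are positive over all libraries and negative within numbers 4 to 8, and Ets1 is also negative under T cell receptor gene scaling.

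Per kilobase of exon, which allows levels of different genes to be set side by side, Id3 and Tcf7 were the 2 highest of the 10 in all 10 libraries. Id3 averaged 541 ± 218 CPM per kb (SD, n = 6) in KO and 229 ± 185 CPM per kb (SD, n = 4) in WT, and Tcf7 372 ± 156 and 194 ± 57.4 CPM per kb. Those 2 did not differ from each other beyond their spread in either genotype, and Tcf7 led in KO replicate 4 and in WT replicates 2 and 4. Ets1 ranked next in all 10 libraries, at 48.8 ± 17.1 CPM per kb in KO and 37.6 ± 8.70 in WT, followed in all 10 by Lef1, at 26.4 ± 3.08 and 15.0 ± 3.73. The 6 remaining genes changed places between libraries. In KO they ran from Myb (6.38 ± 3.00 CPM per kb), Bcl11b (6.11 ± 5.44) and Foxo1 (4.95 ± 4.13) through Foxp1 (3.47 ± 1.11) and Satb1 (2.36 ± 1.6) to Bach2 (1.47 ± 0.579). In WT they ran from Foxp1 (4.65 ± 3.28), Foxo1 (2.89 ± 0.650) and Bach2 (2.24 ± 1.38) to Bcl11b (1.1 ± 0.755), Myb (0.687 ± 0.189) and Satb1 (0.580 ± 0.120). Neighbours in both of these orders differed by no more than the larger SD of the pair. Myb thus stood at the head of the 6 by mean level in KO and next to last in WT.

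The KO libraries themselves split by library number for most of these genes. KO replicates 1 to 3 were higher than KO replicates 4 to 6 without overlap for 8 of the 10, against 19.0% of 12919 genes tested, and Foxp1 was lower without overlap, against 15.5%. By edgeR 4 of the 10 were higher in KO replicates 1 to 3, where 9.60% of genes were. They were Bcl11b at 7.33-fold (adjusted p = 0.00744), Foxo1 at 6.70-fold (adjusted p = 0.00678), Satb1 at 4.00-fold (adjusted p = 0.00341) and Tcf7 at 2.22-fold (adjusted p = 0.00379). Myb differed by 2.26-fold (adjusted p = 0.0855) and Id3 by 2.00-fold (adjusted p = 0.0631), also by edgeR. Lef1 moved least among the 8, by 1.21-fold, and Bach2 overlapped between the sets. Both sets of KO libraries carry the same genotype and gate in the labels.

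Within library numbers 4 to 8, 3 KO libraries were set against 3 WT libraries. Myb was called by edgeR there too, at a log2 fold change of 2.66 (SE 0.47, adjusted p = 0.0235), and it was the 1 regulator called of 10, where 0.842% of genes were called higher in KO. Lef1, at 0.78 (SE 0.28, edgeR adjusted p = 0.157), kept almost the value it had over all libraries and again did not overlap. Satb1 still did not overlap but was at 0.81 rather than 2.02, Tcf7 was at 0.25 rather than 0.94, and Bcl11b at 1.05 rather than 2.47. Foxo1 was lower in all 3 KO libraries than in all 3 WT libraries, at -1.17 (edgeR adjusted p = 0.178). The gap was narrow, with 18.17 CPM in KO replicate 4 and 18.21 CPM in WT replicate 3. The share of all genes without overlap in this subset was not counted, so these separations are description only. Bach2 was at -1.17, Foxp1 at -0.49, Ets1 at -0.11 and Id3 at 1.30.

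Among library numbers 1 to 3, the 3 KO libraries could be set against WT replicate 1 only, whose spread is assumed to be that of the KO libraries. All 10 regulators were higher in KO there, from 0.68 for Id3 to 3.40 for Myb on the log2 scale, and edgeR called Myb higher (adjusted p = 0.0443), where 2.10% of all genes were. Most genes leaned the same way in that comparison: 57.1% of 15078 tested genes were higher in KO, with a median of 0.37 beside 1.95 for the 10. Calls were 316 higher and 79 lower, against 61 and 384 over all 10 libraries. Foxp1 was at 2.75 and Bach2 at 2.15, where both were negative within numbers 4 to 8. The difference between the sets in the KO effect was called by edgeR for 2 of the 10, Foxp1 at 3.24 (SE 0.66, adjusted p = 0.0163) and Foxo1 at 2.94 (SE 0.79, adjusted p = 0.0481), where 10.0% of all tested genes were called in either direction. For Bach2 it was 3.32 (edgeR adjusted p = 0.0563). These values rest on WT replicate 1, so the library set cannot be told apart from that library.

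Genes of the pathways around the regulators were read from 6 lists, and edgeR called no member of any of them. Of 12 FOXO1 targets, 7 had positive and 5 negative fold changes with a median of 0.35. At an unadjusted p under 0.05, 3 of the 12 were higher and 1 lower by edgeR (7.15% and 10.8% of all genes). DESeq2 called 2 of the 12 higher (Cdkn1b and Pik3ip1), against 4.43% of all genes, and limma-voom called 0. Ccr7, the receptor for lymph node entry, was at 883 ± 251 CPM (SD, n = 6) in KO and 479 ± 220.02 CPM (SD, n = 4) in WT, a log2 difference of 0.88 by edgeR (adjusted p = 0.269). Klf2, a homing and quiescence factor, split by library number in both genotypes. It held 998 to 2047 CPM in KO replicates 1 to 3 and 1630.1 CPM in WT replicate 1, against 18.7 to 24.7 CPM in KO replicates 4 to 6 and 12.8 to 14.7 CPM in WT replicates 2 to 4. Its fold change over all libraries was 0.98 (SE 1.78, edgeR adjusted p = 0.808). Foxo1 itself was high in KO replicates 1 to 3 but not in WT replicate 1 (22.6 CPM).

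The list of TCF1 and LEF1 partners and Wnt pathway genes had 12 of 15 members tested, 9 positive and 3 negative, with a median of 0.75. At an unadjusted p under 0.05, edgeR gave 4 of the 12 higher and 0 lower (7.15% and 10.8% of all genes). DESeq2 called 2 higher (Axin2 and Tle3), against 4.43% of all genes, and limma-voom called 0. Tle3, a corepressor that TCF1 and LEF1 recruit, was at 171 ± 96.3 CPM (SD, n = 6) in KO and 56.6 ± 15.7 CPM (SD, n = 4) in WT without overlap, with a log2 difference of 1.59 by edgeR (SE 0.43, adjusted p = 0.0839). Axin2, a known TCF/LEF target and inhibitor of Wnt signalling, was the other gene without overlap and was picked out after its values were seen. It stood at 10.9 ± 4.08 against 3.18 ± 1.96 CPM, a log2 difference of 1.78 by edgeR (adjusted p = 0.137). Aes, a short relative of the corepressors, averaged 984 ± 978 CPM in KO and 443 ± 811 CPM in WT (edgeR log2 difference 1.15, adjusted p = 0.717), a spread as wide as its mean. Like Klf2, Aes split by library number, with 1712 to 2013 CPM in KO replicates 1 to 3 and 1658 CPM in WT replicate 1. KO replicates 4 to 6 held 74.3 to 111 CPM of it and WT replicates 2 to 4 held 18.2 to 72.1 CPM.

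Of 12 factors of effector differentiation, 4 had positive and 8 negative fold changes with a median of -0.21. At an unadjusted p under 0.05, edgeR gave 1 of the 12 higher and 3 lower (7.15% and 10.8% of all genes). DESeq2 and limma-voom each called 3 lower (Prdm1, Zeb2 and Eomes), where 7.22% and 4.78% of all genes were called lower. Those 3 genes were at or near 0 CPM in KO and were kept by the filter through their WT levels. Id2, an inhibitor of E proteins, was at 629 ± 196 CPM (SD, n = 6) in KO and 356 ± 137 CPM (SD, n = 4) in WT (edgeR log2 difference 0.82, adjusted p = 0.225). Bhlhe40, a factor of T helper effector function, was at 359 ± 121 and 376 ± 130.4 CPM (edgeR log2 difference -0.07, adjusted p = 0.934). Prdm1 and Eomes were lower in KO without overlap, and both were named after their values were seen. Prdm1, which encodes BLIMP1, averaged 0.396 CPM (KO) against 20.7 CPM (WT), and Eomes 0.244 and 3.35 CPM. Plasma cells also make Prdm1, and plasma and B cell markers were likewise lower in KO (992 to 1436 CPM in KO, 5277 CPM or more in WT). Within WT, replicate 2 had the lowest Prdm1 (5.78 CPM) with a marker sum of 22349 CPM, and replicate 1 had the lowest sum (5277 CPM). The part of plasma and B cells in the Prdm1 level was not tested.

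**Figure D3:**
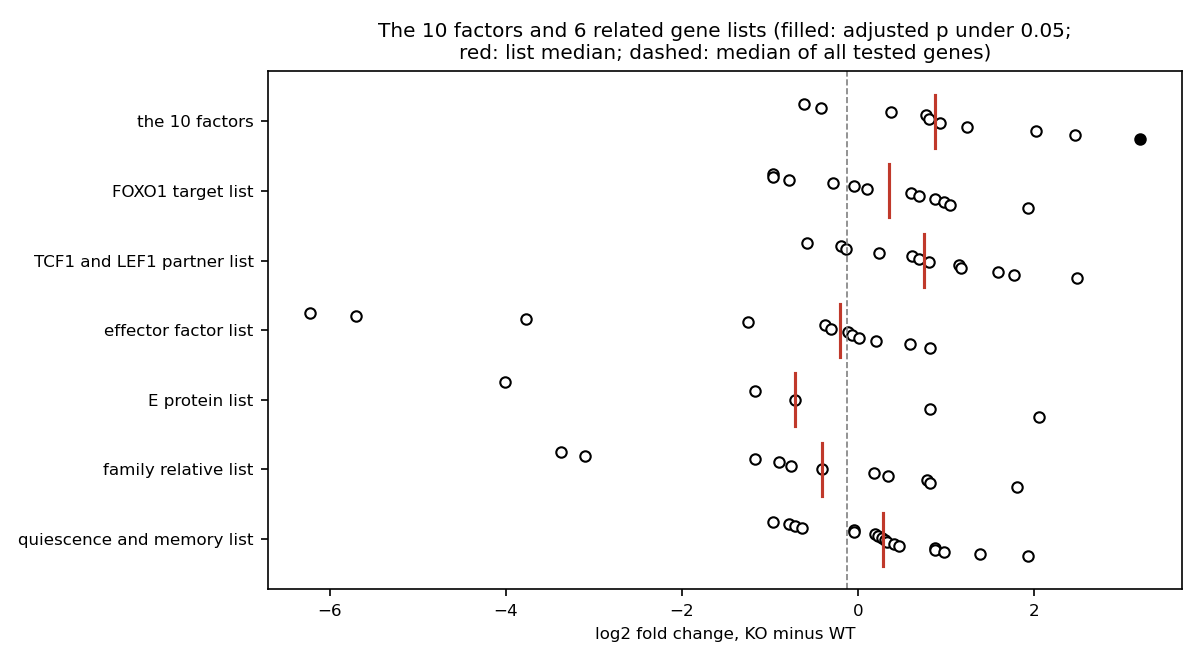
Log2 fold change of KO over WT for each tested gene of the 10 regulators and of the 6 related lists, 1 point per gene, with each list's median in red and the median of all tested genes (-0.12) dashed. The medians run from -0.72 for the E protein list to 0.87 for the regulators, and Myb is the filled point, the 1 gene called by edgeR.

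The 5 tested E protein and ID genes had 2 positive and 3 negative values with a median of -0.72. At an unadjusted p under 0.05, edgeR gave 1 of the 5 higher and 1 lower (7.15% and 10.8% of all genes), and neither DESeq2 nor limma-voom called any (0). Tcf3, which encodes the E proteins E12 and E47, averaged 205 ± 204 CPM in KO and 49.0 ± 65.4 CPM in WT (edgeR log2 difference 2.06, SE 1.18, adjusted p = 0.393). Tcf3 split by library number too, with 257 to 530 CPM in KO replicates 1 to 3 and 144 CPM in WT replicate 1. KO replicates 4 to 6 held 22.8 to 60.4 CPM of it and WT replicates 2 to 4 held 5.13 to 40.5 CPM. Of 11 tested paralogues of the regulators, 5 were positive and 6 negative (median -0.40). By edgeR 1 was higher and 1 lower at an unadjusted p under 0.05 (7.15% and 10.8% of all genes). DESeq2 called 1 of them lower (Bcl11a) and limma-voom 1 lower (Foxp3), against 7.22% and 4.78% of all genes. Bcl11a, the paralogue of Bcl11b that B cells and dendritic cells make, was lower in KO without overlap, at 3.64 ± 3.84 against 31.2 ± 19.6 CPM (edgeR log2 difference -3.10, adjusted p = 0.192), and was named after its values were seen. B cell and myeloid markers were higher in the same WT libraries, and their part in the Bcl11a level was not tested. Foxp4, a paralogue of Foxp1, averaged 86.2 ± 90.3 and 24.5 ± 33.1 CPM (edgeR log2 difference 1.81, adjusted p = 0.398). Foxp4 also split by library number, with 90.4 to 247 CPM in KO replicates 1 to 3 and 73.8 CPM in WT replicate 1. KO replicates 4 to 6 held 15.4 to 22.2 CPM of it and WT replicates 2 to 4 held 5.01 to 13.7 CPM.

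Of 18 tested quiescence and memory genes, 12 were positive and 6 negative with a median of 0.29, and edgeR gave 2 higher and 0 lower at an unadjusted p under 0.05, against 7.15% and 10.8% of all genes. DESeq2 and limma-voom called 0 each. Slfn2, which keeps T cells quiescent, was at 2187 ± 254 CPM (SD, n = 6) in KO and 1759.8 ± 411 CPM (SD, n = 4) in WT (edgeR log2 difference 0.31, adjusted p = 0.456). Btg1, an antiproliferative gene of resting T cells, averaged 1473 ± 1345 and 384 ± 467 CPM (edgeR log2 difference 1.94, adjusted p = 0.353).

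Ratios of a regulator to its counterpart within a library depend on how libraries are scaled only through the prior count, which is set in proportion to library size. That part is large where counts are near 0, as for Prdm1 in KO. The log2 ratio of Tcf7 to Prdm1 was 12.2 ± 2.51 (SD, n = 6) in KO and 5.04 ± 1.71 (SD, n = 4) in WT. The 6 KO values (9.01 to 14.8) were all above the 4 WT values (3.12 to 6.94). The means differed by 7.15. The log2 ratio of Bach2 to Prdm1, a repressor over its target, was 6.13 ± 2.24 in KO and 0.18 ± 1.64 in WT. The ranges, 3.00 to 8.52 and -0.92 to 2.61, did not overlap, and the means differed by 5.95. Both ratios turn on Prdm1, whose lower level in KO was already seen above, so they are given as a description with no test. Bach2 alone overlapped between the genotypes. Prdm1 had 0 counts in KO replicates 2, 3 and 5 and 15 to 46 in the other KO libraries, against 203 to 1467 counts in WT. The ratios were made with a prior count of 2 and their size depends on it: with 0.5 the differences were 8.18 and 6.98. The plasma and B cell marker values given beside Prdm1 hold for both ratios as well.

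The log2 ratio of Id3 to Id2, the 2 ID genes expressed here at high level, was 0.56 ± 0.46 (SD, n = 6) in KO and -0.12 ± 1.40 (SD, n = 4) in WT. KO values ran from -0.0085 to 1.34 and WT values from -1.72 to 1.23, so the groups overlapped. The difference of 0.67 gave an exact two-sided permutation p = 0.314. WT replicates 1 and 3 had more Id3 than Id2 by this ratio (0.87 and 1.23), and WT replicates 2 and 4 had less (-0.85 and -1.72).

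**Figure D4:**
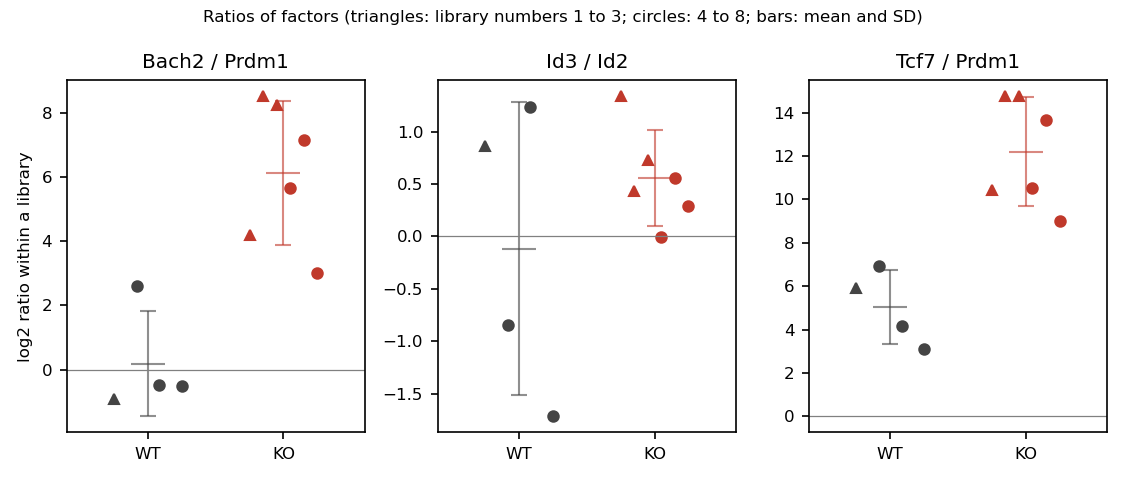
Log2 ratio of Bach2 to Prdm1, Id3 to Id2 and Tcf7 to Prdm1 in each library, with KO and WT libraries side by side and group means. Both ratios over Prdm1 separate the genotypes without overlap (KO 9.01 or more against WT 6.94 or less for Tcf7), and Id3 to Id2 overlaps.

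For each regulator, the genes whose pattern over the 10 libraries was nearest were taken from 8094 genes whose mean reached 8 CPM, by the root mean square difference of centred log2 CPM. The distance is not scaled to how much a regulator itself varied, and the SD of log2 CPM over the 10 libraries was 0.49 for Lef1, 0.48 for Ets1, 1.70 for Bcl11b and 1.72 for Myb. In absolute distance Lef1 had the closest neighbours, RP23-140G16.2 at 0.12 and Lck, the kinase of T cell receptor signalling, at 0.13. Lck averaged 5544 ± 882 CPM (SD, n = 6) in KO and 3091 ± 719 CPM (SD, n = 4) in WT, a log2 difference of 0.84 by edgeR (adjusted p = 0.0652) beside the 0.81 of Lef1. Myb had the most distant ones in absolute terms, Mapk12 at 0.49 and Arhgef4 at 0.55. Mapk12, a p38 kinase gene, was at 103 ± 62.1 against 8.00 ± 3.75 CPM, with a log2 difference of 3.69 by edgeR (adjusted p = 0.00895). Mapk12 and Lck were picked for their likeness to Myb and Lef1 in these same libraries, so their fold changes are not separate findings. The nearest genes were Rnf145 (0.23) and Rnf111 (0.30) for Tcf7, Baz1b (0.25) and Dicer1 (0.35) for Bach2, and B9d2 (0.30) and Sertad1 (0.31) for Id3. Hnrnpul2 (0.37) and Itga6 (0.45) were nearest to Foxo1, Thrap3 (0.24) and Xpo7 (0.32) to Foxp1, and Zfp653 (0.27) and Pgs1 (0.28) to Satb1. Sfmbt1 (0.28) and Nfatc3 (0.29) were nearest to Ets1, and Taf5l (0.26) and Vac14 (0.29) to Bcl11b. These are descriptions over 10 libraries that share their depth and library set with the regulator.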

How the data were processed

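RNA of sorted cells was amplified with SMART-seq v4 and sequenced in paired 50 bp reads, per the labels' protocols. The authors deposited raw counts per gene, obtained with featureCounts 1.6.2 from GENCODE M17 gene models (GRCm38.p6), per the file headers. Those commands set no strand option and left out reads that match several places. The submitters' processing notes also list STAR and FastQC, with no version.

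The 10 regulators, the related lists and the markers were chosen with earlier results of these data known. Counts were scaled by TMM, filtered with filterByExpr and compared, as KO minus WT, with the quasi-likelihood test of edgeR 4.0.16 (limma 3.58.1, R 4.3.3) over all 14214 tested genes, with Benjamini-Hochberg adjustment and a threshold of 0.05. CPM uses TMM-scaled totals, with a prior count of 2 added for log2 values. Intervals are at 95%. The ratio of Id3 to Id2 was compared by exact permutation over libraries. The fit was tested on simulated data.

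Genes named are Tox, the 10 regulators, called list members or, where fewer than 2 were called, the 2 most abundant, the 2 genes nearest in pattern to each regulator, and abundant markers of other cells. Other genes are said to have been named after their values were seen, and genes that DESeq2 1.42.0 or limma-voom called are named beside those counts. Alternatives were other scaling, filters, tests, thresholds, blocks and subsets of libraries. No pair of libraries of the same genotype was within sampling noise by a chi-square of counts. Upstream windows were read from RefSeq (GRCm38.p6).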

Additional observations from a re-analysis of the deposited data

Results flagged for a closer look

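The log2 ratio of Bach2 to Prdm1 was 2.61 in WT replicate 2, while the other 3 WT libraries lay between -0.92 and -0.47. The gap was 0.873 of the whole WT range, wider than Dixon's limit for 4 samples. Chance flags about 1 in 20 groups, and 6 groups of ratios and 20 groups of single regulators were looked at. Bach2 was highest in that library (35.6 CPM) and Prdm1 was lowest among WT (5.78 CPM).

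The difference between KO and WT was not the same in both sets of library numbers for Foxo1 and Foxp1 by the interaction test of edgeR. The log2 fold change was larger in numbers 1 to 3 by 2.94 for Foxo1 (adjusted p = 0.0481) and by 3.24 for Foxp1 (adjusted p = 0.0163). Foxo1 was at 1.76 in numbers 1 to 3 and -1.17 in numbers 4 to 8, and Foxp1 at 2.75 and -0.49. Both values rest on WT replicate 1, the single WT library in the first set.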

How the results depend on the processing

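Each regulator was refitted under 30 settings, giving 300 values, of which 269 kept their direction and side of the threshold, 4 lost the call, 12 gained one and 15 turned direction. Myb kept its direction in all 30 (2.42 to 3.69) and its call in 26. Over all genes, the 445 calls became 1878 with scaling to T cell receptor complex genes (17 higher, 1861 lower, against 61 and 384), 1612 with DESeq2, 884 with limma-voom, 5331 with quality weights, 128 and 750 at thresholds of 0.01 and 0.10, 1154 in library numbers 4 to 8 and 0 with the B cell term. Library numbers 1 to 3 gave 316 higher and 79 lower. Leaving out 1 library gave 153 (without WT replicate 4) to 1644 (without WT replicate 1), with 236 and 718 without WT replicates 2 and 3 and 287 without KO replicate 1 or 2. Of the 10 regulators, 4 were called with DESeq2, 2 with limma-voom, 2 at 0.10 and 0 with the B cell term (Myb 3.17, edgeR adjusted p = 0.564). With quality weights 5 were called, 4 higher and 1 lower. The lower one was Bach2, at -1.22 (adjusted p = 0.0263 by limma-voom with quality weights). With 1 library left out, 1 to 2 were called (Lef1, edgeR adjusted p = 0.0497 without WT replicate 1). In alternatives chosen after seeing the data, leaving out KO replicates 1 to 3 gave 17 genes and 0 regulators, and leaving out KO replicates 4 to 6 gave 209 genes and 3 regulators (Myb, Satb1 and Bcl11b). The cause was not tested.

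Of the related lists, FOXO1 targets had 2 calls with T cell receptor scaling, 2 with DESeq2, 3 with quality weights, 1 in numbers 1 to 3 and 0 to 2 with 1 library left out (2 without WT replicate 1). TCF1 and LEF1 partners had 2 with DESeq2, 3 with quality weights, 1 at 0.10, 1 in numbers 1 to 3 and 0 to 1 with 1 left out. Effector factors had 2 with T cell receptor scaling, 3 with DESeq2, limma-voom and quality weights each, 1 at 0.10, 1 in numbers 4 to 8 and 0 to 2 with 1 left out. E protein genes had 2 with quality weights. Paralogues had 1 with DESeq2, 1 with limma-voom, 3 with quality weights, 1 in numbers 4 to 8 and 0 to 1 with 1 left out. Quiescence and memory genes had 1 with T cell receptor scaling, 3 with quality weights, 2 in numbers 1 to 3 and 0 to 1 with 1 left out. In numbers 4 to 8 the ratio differences were 4.72 (Bach2 to Prdm1) and 6.32 (Tcf7 to Prdm1). With 1 library left out, the Id3 to Id2 difference ran from 0.14 to 1.12.

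Direction turned for Bach2 (0.33 with the library number block, 2.15 in numbers 1 to 3, 4.42 with the B cell term), Id3 (-1.03 with the B cell term) and Foxo1 (-0.54 with quality weights, -0.50 with a term for the number set, -1.17 in numbers 4 to 8, -1.12 without KO replicates 1 to 3). It also turned for Foxp1 (0.19 with limma-voom, 0.62 with the library number block, 0.23 with the number set term, 2.75 in numbers 1 to 3, 4.41 with the B cell term) and Ets1 (-0.39 with T cell receptor scaling, -0.11 in numbers 4 to 8). With the replicate number as a block, over replicates 1 to 4, 0 genes and 0 regulators were called (Myb 3.57, edgeR adjusted p = 0.0686). With the library number block, over numbers 2 and 6 only, the calls were 0 and 0. Deviations of same-numbered replicates correlated at 0.29, -0.25, -0.22 and 0.30. For replicates 2 and 3, the KO library carries a number from 1 to 3 and the WT library one from 4 to 8. The values therefore cannot tell pairing by replicate number from the library sets, and whether replicate numbers pair samples was not decided. For library numbers 2 and 6 the deviations correlated at 0.32 and 0.13, and 2 pairs are too few to decide. Depth limits Prdm1 in KO, with 0 to 46 counts per library.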
